A study of Mus musculus with 6 samples.

Results

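The 10 amino acid transporter genes Slc7a11, Slc7a5, Slc3a2, Slc7a1, Slc7a3, Slc38a1, Slc38a2, Slc1a4, Slc1a5 and Slc6a9 were examined among the 16880 genes listed for mouse ATDC5 cells, and they were taken by name as carriers of the plasma membrane and their shared heavy chain. ATDC5 is a single mouse chondrogenic cell line, derived from a teratocarcinoma, so the replicates share a line and differ as samples of it. The labels give ATDC5 for all 6 samples, whereas the study's methods call the sequenced cells chondrocytes and elsewhere describe primary mouse articular chondrocytes, so which cells were sequenced is uncertain. The control group was stimulated with IL-1β at 10 ng/mL, and the other group received the same IL-1β together with 10 μmol/L of NP-G2-044, an inhibitor of the actin-bundling protein fascin, with 3 libraries in each. Both groups therefore carried IL-1β, and cells without IL-1β were not analysed here. Cells were treated for 24 h. The sample titles name NP-G2-044 while the treatment tag of the same samples reads NP-G2-047, and the name in the titles is used below. The study's methods describe the replicates as biological, the labels do not say whether they were separate cultures, and where they were not the p-values measure only the spread between these samples.

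The depth was 16615824 to 16878164 reads assigned to genes in the IL-1β libraries and 17529844 to 17735860 in the libraries with NP-G2-044. Of the defining chondrocyte markers, Matn1 was listed at 0 in every library, Col2a1 lay between 0.02 and 0.24 TPM (a share of all transcripts in a library, corrected for transcript length), and 6 of the 9 listed markers stayed below 1 TPM throughout. Acan, Col9a1 and Hapln1 were not analysed here. Sox9, a master regulator of cartilage genes, rose from 6.44 to 11.4 TPM while its partner Sox5 fell from 10.3 to 2.27 TPM, and the summed level of all 9 was 21.9 to 22.7 TPM with IL-1β and 17.1 to 17.6 TPM with NP-G2-044 added. The summed level of 8 fibroblast markers was 1138.6 to 1184.5 TPM with IL-1β and 357.0 to 373.3 TPM with the inhibitor, with Thy1 at 0 in every library. Col1a2 made up most of this sum (1098.4 and 330.8 TPM), and Pdgfra of the same list rose from 2.36 to 8.69 TPM. The macrophage marker sum (10.4 to 13.5 against 4.6 to 5.26 TPM) was almost all Cd14, which other cells also express, with Ptprc at 0. That of adipocytes (2.87 to 5.09 against 0.36 to 0.74 TPM) was almost all Fabp4, with Adipoq at 2 reads in each group. Osteoblast markers summed to 2.89 to 4.59 against 0.38 to 0.53 TPM, and endothelial, epithelial and skeletal muscle markers to at most 0.55 TPM. These marker levels differed between the same groups as the transporters, and their part in the transporter results was not tested. In such bulk samples, fewer cells of a type and less RNA per cell cannot be told apart.

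Amino acid transporters are membrane carriers, of which some exchange one amino acid for another and some draw amino acids into the cell along the sodium gradient. Slc3a2 encodes the CD98 heavy chain, a glycoprotein that carries no amino acid itself but brings light chains such as those encoded by Slc7a11 and Slc7a5 to the cell surface. Several of these genes are known targets of ATF4, the transcription factor made when the integrated stress response slows general translation, and Slc7a11 is also a known target of the oxidative stress factor NRF2. In cartilage cells, amino acid uptake feeds the synthesis of the collagen-rich matrix, in which glycine and proline are abundant.

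Because both factors act through short DNA motifs, the windows around the annotated transcription starts were read from RefSeq on build GRCm38.p6, from 250 bases before to 50 bases after each start. The motifs were TGATGNAA, the core of the amino acid response element bound by ATF4 with C/EBP partners, and TGACNNNGC, the core of the antioxidant response element bound by NRF2, each searched on both strands. The RefSeq table held 9 windows for 6 of the 10 genes, and the windows of Slc7a5, Slc7a3, Slc38a1 and Slc1a5 were not analysed. The matches are shown because they place the letters of both motifs relative to the genes whose levels follow. The matched bases are in capitals, the rest in lower case, each sequence is given 5′ to 3′ on the strand of its gene, and positions are counted from the transcription start. The amino acid response letters were found in the windows of Slc7a11, where a pair of matches on opposite strands lies between positions -66 and -40 (chr3:50443652-50443680, minus strand), and of Slc1a4, where they span the start from position -4 to 4 (chr11:20332700-20332727, minus strand).
Slc7a11: cTGATGCAAacctggagaatTTGCATCAt
Slc1a4: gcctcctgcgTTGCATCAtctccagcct
The antioxidant response letters were found once in the upstream window of Slc7a1 (chr5:148399897-148399925, minus strand) and once in the window of Slc38a2 (chr15:96699737-96699765, minus strand). They were also found once in each of 2 of the 3 windows of Slc6a9, at chr4:117849294-117849322 and chr4:117855492-117855520 (plus strand). The other Slc7a1 window, farther downstream, held neither set of letters. The remaining Slc6a9 window, the farthest upstream, held neither set of letters.
Slc7a1: cggccgcgcgGCGCTGTCAttggtgccct
Slc38a2: ccccgcccacTGACGCGGCgccccgccgc
Slc6a9, middle window: tgaaagtaatTGACGCTGCccagcccggc
Slc6a9, downstream window: gtttccggctTGACTTGGCtgcttggtat

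Among all 32851 promoter windows, the amino acid response letters occurred in 3.97% and the antioxidant response letters in 12.4%, against 2 of 9 and 4 of 9 windows of the transporters. Some genes have several windows. Counted by gene, the shares were 4.51% and 14% of all genes with a window, against 2 of 6 and 3 of 6 transporters. The 2 motifs overlapped each other in 0 windows. Neither set of letters occurred in the window of Slc3a2, at chr19:8713848-8714147. This window and that of Slc7a11 lie inside the gene spans given further on. The upstream ends of those spans were not searched. Of the 19 integrated stress response genes described further on, 6 (Atf3, Chac1, Trib3, Asns, Nupr1 and Vldlr) held the amino acid response letters, and 6 held the antioxidant response letters. Of the 9 NRF2 response genes with a window, 6 held the antioxidant response letters and 0 the amino acid response letters. A match describes the sequence and does not show that a factor was bound there.

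With NP-G2-044 added, 7 of the 10 transporters rose by more than 2-fold and none fell by that much. These were Slc6a9, Slc7a11, Slc3a2, Slc7a1, Slc1a4, Slc7a5 and Slc38a1, with fitted changes from 11.3-fold for Slc6a9, the glycine transporter GlyT1, down to 2.2-fold for Slc38a1, a sodium-coupled glutamine transporter. Slc7a3 and Slc1a5 rose by less than 2-fold, and Slc38a2, the most abundant of the 10 in IL-1β alone, fell by 0.24 on the log2 scale. The counts of all genes were compared in edgeR by its quasi-likelihood test, with the p-values adjusted after Benjamini and Hochberg over 11983 genes, all 10 transporters among them. A gene was called past both cutoffs at an adjusted p below 0.05 with a log2 fold change above 1 in size. Of all genes tested, 16.6% passed both cutoffs, with 6.48% higher with the inhibitor and 10.1% lower, against 70% of the transporters higher. The transporters were chosen with earlier results of these data known, so the 70% is a description and not a test of enrichment. On the adjusted p alone, 9 transporters were higher and 1 was lower, where 80% of all genes passed, 40.2% higher and 39.8% lower. The TPM values of the groups did not overlap for any of the 10, with 9 higher and 1 lower, and 79.4% of all genes tested were separated in this way and 38% as higher. Counted in either direction, passing the test or not overlapping is thus common to most genes here and is read as no result about the transporters. The median log2 fold change was 1.59 over the 10 transporters and 0.0 over all genes tested.

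**Figure D1:**
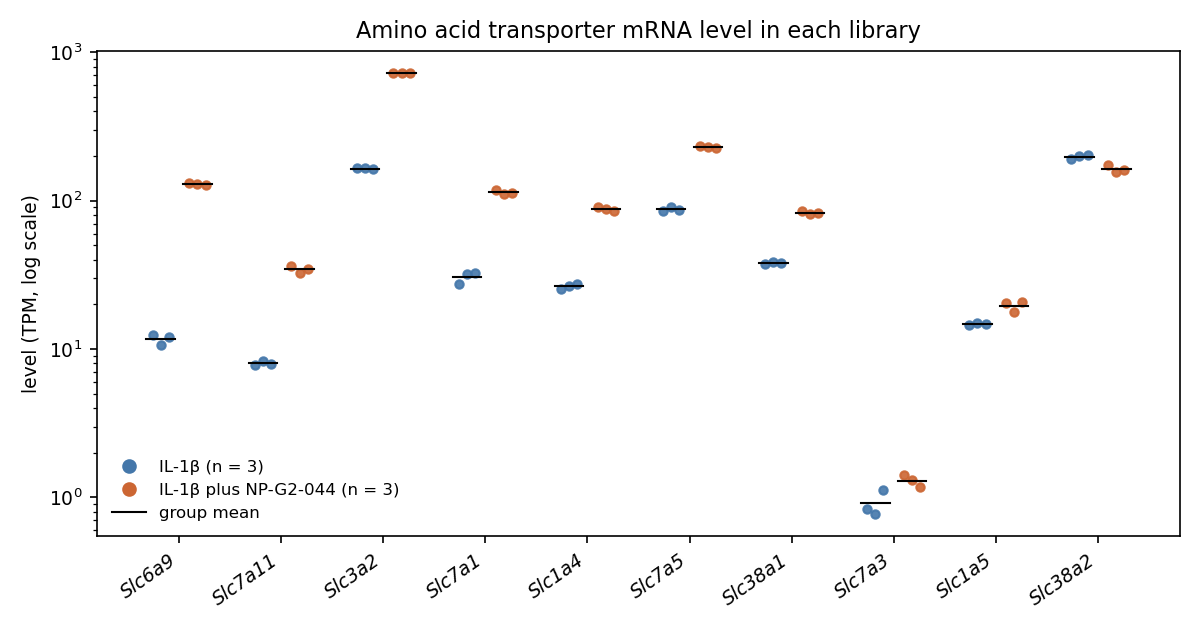
Level of each of the 10 transporters (TPM, log scale) in the 3 IL-1β libraries (blue points) and the 3 libraries with IL-1β plus NP-G2-044 (orange points), with black lines at the group means. Slc3a2 reached 722.1 to 726.6 TPM with the inhibitor, Slc6a9 moved from 10.7 to 12.5 TPM up to 128.4 to 131.6 TPM, and Slc38a2 was the transporter whose inhibitor libraries lay below its IL-1β libraries.

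Slc3a2 (Entrez 17254, chr19:8706882-8723369, minus strand), the heavy chain, was at 165.6, 164.7 and 162.6 TPM in the IL-1β libraries and at 726.6, 722.1 and 724.4 TPM in those with NP-G2-044. All 3 inhibitor libraries lay above all 3 IL-1β libraries, and the libraries of a group were within a few TPM of each other. The mean rose from 164.3 ± 1.53 to 724.4 ± 2.26 TPM (SD, n = 3 per group), and edgeR's quasi-likelihood test gave a log2 fold change of 2.16 (SE 0.0287, adjusted p = 4.2e-51). The rise of 560.1 TPM was larger than that of any other of the 10.

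Slc7a11 (Entrez 26570, chr3:50364936-50499087, minus strand) encodes the light chain xCT, which imports cystine, the source of cysteine for glutathione, in exchange for glutamate. Its level was 7.79, 8.24 and 7.97 TPM with IL-1β and 36.0, 32.7 and 34.4 TPM with the inhibitor, so the groups were well apart. Summed over the libraries, the counts were 2154 against 10495 reads. The log2 fold change was 2.21 (SE 0.0391, adjusted p = 2.89e-45, edgeR quasi-likelihood test), a 4.64-fold rise.

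Slc7a5 (Entrez 20539, chr8:121881146-121907686, minus strand) encodes LAT1, the light chain that exchanges large neutral amino acids such as leucine. It was measured at 84.9, 90.8 and 86.8 TPM in IL-1β and 234.0, 229.8 and 224.6 TPM with NP-G2-044, again without overlap. It rose 2.68-fold (log2 fold change 1.42, SE 0.0292, adjusted p = 2.96e-42, edgeR quasi-likelihood test), less than its heavy chain.

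At the RNA level, the heavy chain was more abundant relative to its light chains with the inhibitor. The ratio of Slc3a2 to the summed level of Slc7a5 and Slc7a11, in TPM, was 1.79, 1.66 and 1.72 with IL-1β and 2.69, 2.75 and 2.8 with the inhibitor, a 1.59-fold higher mean. Other possible light chains were left out, so the ratio does not give the balance of the heavy chain to all of them. Among those left out were Slc7a6, whose group mean went from 51.1 down to 46.3 TPM when the inhibitor was added, and the scarce Slc7a7. Slc7a5 exceeded Slc7a11 by 10.9-fold with IL-1β and by 6.69-fold with the inhibitor. These ratios are descriptions of the levels without a test, and the Slc7a5 to Slc7a11 ratio, like the ratios and sums of pairs further on, was chosen after the values were seen. The estimated counts of Slc3a2, Slc7a11 and Slc7a5, and of no other transporter of the 10, were not whole in some or all libraries.

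Slc7a1 (Entrez 11987, chr5:148327410-148399904, minus strand) encodes CAT1, a widely expressed importer of arginine and lysine. Its level was 27.4, 31.9 and 32.3 TPM in the IL-1β libraries and 118.2, 111.4 and 113.4 TPM with the inhibitor. IL-1β replicate 1 was the lowest of its group, and the gap between the groups exceeded the spread within either. The log2 fold change was 1.94 (SE 0.0411, adjusted p = 2.15e-19, edgeR quasi-likelihood test).

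The related cationic carrier Slc7a3 (Entrez 11989, chrX:101079146-101090452, minus strand), known mainly from brain, was the scarcest of the 10. It was at 0.84, 0.77 and 1.12 TPM with IL-1β and 1.42, 1.3 and 1.17 TPM with NP-G2-044, from 18, 17 and 24 against 34, 33 and 28 reads. The highest IL-1β library and the lowest inhibitor library lay closer together than the libraries within either group. Its log2 fold change of 0.61 (SE 0.237) passed edgeR's quasi-likelihood test at an adjusted p = 0.0166, but not when IL-1β replicate 1 (adjusted p = 0.0576), IL-1β replicate 2 (adjusted p = 0.073) or NP-G2-044 replicate 1 (adjusted p = 0.057) was left out.

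Slc38a1 and Slc38a2 encode the sodium-coupled transporters SNAT1 and SNAT2, which take up glutamine and other small neutral amino acids, and SNAT2 is known for being induced when amino acids run short. The genes are neighbours on the minus strand of chromosome 15, at chr15:96571418-96643438 (Entrez 105727) and chr15:96687392-96699728 (Entrez 67760), with 43953 bases between them. Slc38a1 was at 37.2, 38.5 and 38.1 TPM with IL-1β and 84.7, 81.0 and 82.0 TPM with NP-G2-044. All inhibitor libraries were higher, and the log2 fold change was 1.14 (SE 0.0292, adjusted p = 8.2e-38, edgeR quasi-likelihood test).

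Slc38a2 moved the other way. It was at 190.3, 200.2 and 201.6 TPM in the IL-1β libraries and 172.9, 157.0 and 161.5 TPM with the inhibitor. The inhibitor libraries were all lower, by a margin slightly wider than the range within each group. The log2 fold change of -0.24 (SE 0.029, adjusted p = 1.48e-10, edgeR quasi-likelihood test) corresponds to a level 1.18-fold lower. The sum of the pair was 235.3 ± 6.75 TPM with IL-1β and 246.4 ± 10.1 TPM with the inhibitor (SD, n = 3), with overlapping libraries, while the ratio of Slc38a2 to Slc38a1 was 5.2 and 1.98.

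Slc1a4 and Slc1a5 encode ASCT1 and ASCT2, exchangers of small neutral amino acids, the first known for serine and alanine and the second for glutamine. Slc1a4 (Entrez 55963, chr11:20302180-20332713, minus strand) was at 25.5, 26.7 and 27.4 TPM with IL-1β and 90.0, 87.8 and 85.1 TPM with the inhibitor. Its groups were far apart, and it rose 3.38-fold (log2 fold change 1.76, SE 0.0351, adjusted p = 8.89e-43, edgeR quasi-likelihood test). Slc1a5 (Entrez 20514, chr7:16781334-16798274, plus strand) was at 14.4, 14.9 and 14.7 TPM against 20.3, 17.8 and 20.7 TPM. The lowest inhibitor library of Slc1a5 still exceeded every IL-1β library, with a log2 fold change of 0.45 (SE 0.0628, adjusted p = 7.06e-09, edgeR quasi-likelihood test). Slc1a4 was 1.81-fold as abundant as Slc1a5 with IL-1β and 4.49-fold with the inhibitor.

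Slc6a9 (Entrez 14664, chr4:117835258-117869305, plus strand) encodes GlyT1, which imports glycine with sodium and chloride and is best known for clearing glycine at synapses. It was at 12.5, 10.7 and 12.0 TPM with IL-1β and 131.6, 129.1 and 128.4 TPM with NP-G2-044. No library of either group came near the other group. With n = 3 per group, the mean rose from 11.7 ± 0.925 (SD) to 129.7 ± 1.7 TPM, and the counts from 1116 to 13294 reads. Its log2 fold change of 3.5 (SE 0.0424, adjusted p = 8.34e-53, edgeR quasi-likelihood test) was the 57th largest rise of the 11983 genes tested. Of these genes, 1.68% had an adjusted p below 0.05 together with a log2 fold change above 2. Its exons overlap those of Ccdc24 on the opposite strand over 1429 bases, of B4galt2 over 46 bases and of Gm17114 over 511 bases, and the sources used here do not say if reads were counted by strand. Ccdc24 was at 13.7 and 10.6 TPM and B4galt2 at 20.3 and 30.6 TPM in the IL-1β and inhibitor groups, close to the level of Slc6a9 with IL-1β and well below it with the inhibitor.

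**Figure D2:**
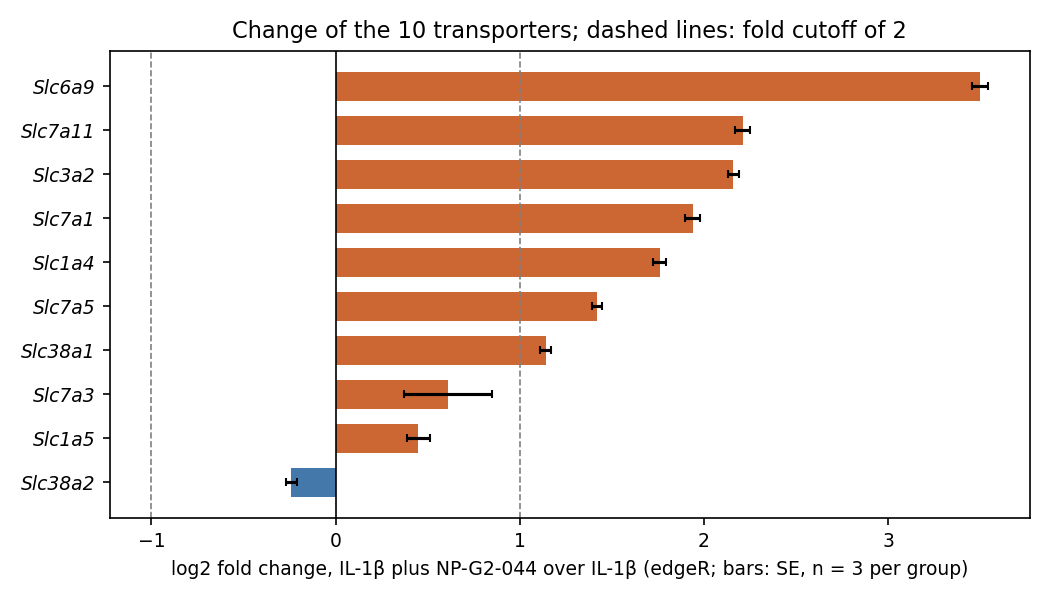
Fitted log2 fold change of each transporter with the standard error, inhibitor group over the IL-1β group, with dashed lines at a 2-fold change in either direction. The bars run from 3.5 for Slc6a9 to -0.24 for Slc38a2, and 7 of the 10 lie beyond the upper line.

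Apart from Slc7a3, whose coefficients of variation were 20.4% and 9.64%, the levels of the other 9 varied by 0.312% to 8.99% (SD over mean) among the libraries of a group. The summed level of the 10 was 579.4 ± 11.4 TPM with IL-1β and 1587.1 ± 24.9 TPM with the inhibitor (SD, n = 3), a net gain of 1007.7 TPM. Slc3a2 made up 28.4% of the sum with IL-1β and 45.6% with the inhibitor, Slc38a2 34.1% and 10.3%, and Slc6a9 2.03% and 8.17%. The order of the levels in IL-1β was Slc38a2, Slc3a2, Slc7a5, Slc38a1, Slc7a1, Slc1a4, Slc1a5, Slc6a9, Slc7a11 and Slc7a3. With the inhibitor it was Slc3a2, Slc7a5, Slc38a2, Slc6a9, Slc7a1, Slc1a4, Slc38a1, Slc7a11, Slc1a5 and Slc7a3. No neighbours in either order had overlapping ranges.

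The genes whose profile over the 6 libraries was nearest to that of Slc6a9, by Euclidean distance of log2 CPM (reads scaled to a common library total) centred on each gene's mean among 8334 genes compared, were Gadd45a (distance 0.234), Acot2 (0.27), Gm3776 (0.353), Stbd1 (0.381) and Hmox1 (0.396). Gadd45a, a gene of growth arrest and DNA damage, averaged 59.1 TPM in the IL-1β group and 644.0 TPM in the inhibitor group. Hmox1, the heme-degrading oxygenase, was at 84.7 and 764.1 TPM. In the order given, the log2 fold changes of the 5 genes were 3.47, 3.45, 3.35, 3.2 and 3.2, against 3.5 for Slc6a9. Where the libraries of a group lie close together, this distance mostly picks genes of a like fold change. It does not show shared regulation.

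Other amino acid transporters of the plasma membrane included several that fell. Of 29 such genes, 21 were listed and 9 had enough reads to be tested, of which 2 were higher and 4 lower past both cutoffs, and their median log2 fold change was -0.11. The largest falls were those of Slc43a2, a carrier of large neutral amino acids, and Slc1a3, a glutamate and aspartate importer. Slc43a2 was at 19.4, 19.2 and 18.4 TPM with IL-1β and 1.06, 0.66 and 0.9 TPM with the inhibitor (log2 fold change -4.72, SE 0.0956, adjusted p = 3.4e-40, edgeR quasi-likelihood test). Slc1a3 went from 23.8, 25.6 and 24.4 TPM to 0.86, 1.02 and 1.02 TPM (log2 fold change -4.63, SE 0.0838, adjusted p = 8.62e-45, edgeR quasi-likelihood test). Both ended near 1 TPM with the inhibitor.

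Slc7a2, the cationic carrier CAT2, fell from 44.8 ± 0.728 TPM to 17.4 ± 0.248 TPM with the inhibitor (SD, n = 3 in each group), and its fitted change was -1.33 as log2 (SE 0.0325, adjusted p = 7.93e-39, edgeR quasi-likelihood test). Slc7a1 was thus 0.681 times as abundant as Slc7a2 in IL-1β and 6.57 times with the inhibitor, and the sum of both was 75.3 and 131.8 TPM. For large neutral amino acids, the sum of Slc7a5 and Slc43a2 was 106.5 and 230.3 TPM. The remaining genes past both cutoffs fell outside the rule for naming genes and are named after their values were seen. Slc6a6, the taurine transporter, fell by 1.11 on the log2 scale from 122.3 to 55.1 TPM, while the glutamate transporters Slc1a7 (0.08 to 1.64 TPM) and Slc1a2 (22 against 51 reads in all) were scarce in both groups and higher with the inhibitor.

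**Figure D3:**
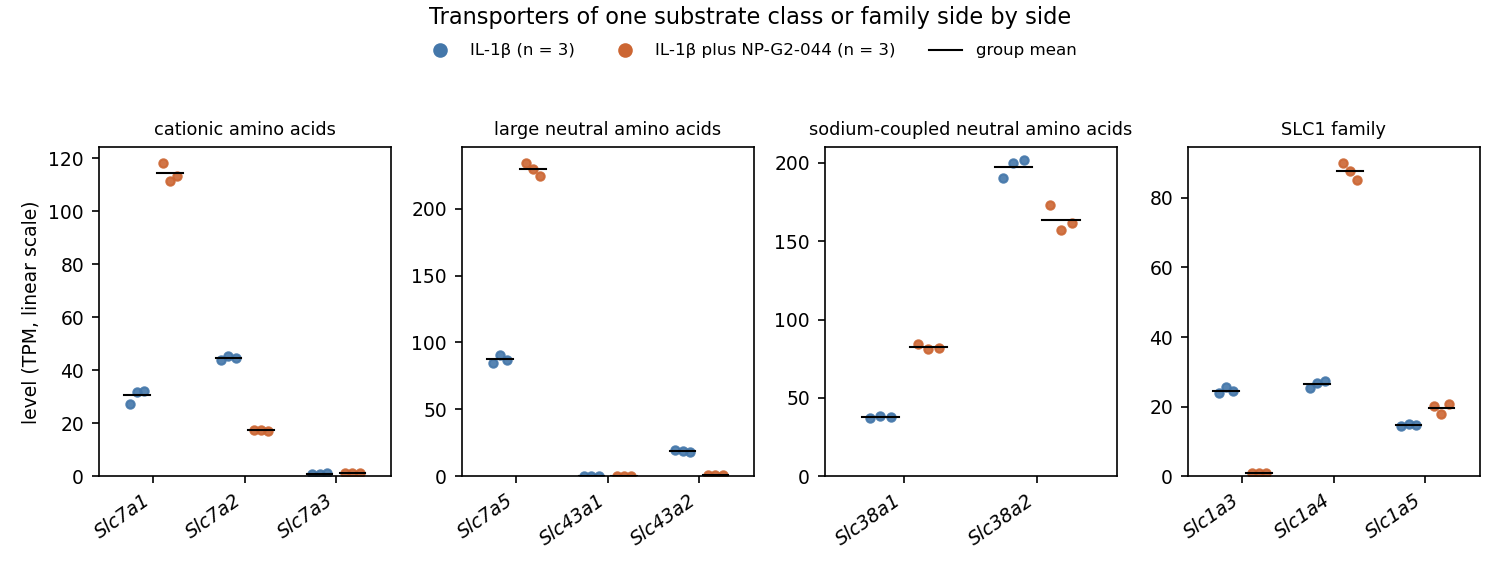
Level (TPM, linear scale from 0) of transporters grouped by substrate class or family in the 3 libraries of each group, IL-1β in blue and IL-1β plus NP-G2-044 in orange, with black lines at the means. Slc7a1, Slc7a5, Slc38a1 and Slc1a4 were higher with the inhibitor while Slc7a2, Slc43a2, Slc38a2 and Slc1a3 beside them were lower.

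Transporters of inner membranes were counted beside all genes tested, of which 6.48% were higher and 10.1% lower past both cutoffs. Of 8 tested lysosomal amino acid transporters, 2 were higher past both cutoffs and none was lower, and the median change was 0.58 on the log2 scale. Slc38a7, a glutamine and asparagine exporter of the lysosome, rose from 41.1 to 111.4 TPM (log2 fold change 1.48, SE 0.0352, adjusted p = 2.95e-39, edgeR quasi-likelihood test). Slc66a1, the lysosomal exporter of arginine and lysine, rose from 13.3 to 26.2 TPM (log2 fold change 1.01, SE 0.0781), just past the fold cutoff, and it was not past it without IL-1β replicate 1 or 2, which left 1 lysosomal gene. Of 9 tested mitochondrial amino acid carriers, none passed both cutoffs, and on the adjusted p alone 6 were higher and 2 lower, with a median of 0.3. On the adjusted p alone, 40.2% of all genes tested were higher and 39.8% lower.

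Genes of the integrated stress response, the list from which several of the transporters are known as targets, were mostly higher with the inhibitor. Of 19, all tested, 16 were higher past both cutoffs and none was lower, and the median change was 2.24 on the log2 scale. Atf3, a stress-induced transcription factor, rose from 7.97 to 303.2 TPM (log2 fold change 5.28), Trib3, a pseudokinase, from 7.09 to 232.2 TPM (5.06) and Chac1, an enzyme that degrades glutathione, from 11.5 to 290.5 TPM (4.68). Named after their values were seen, Atf4 itself went from 176.3 to 840.5 TPM, and Ddit4, a stress-induced inhibitor of mTORC1, fell by 0.48 on the log2 scale.

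Of the 12 tested NRF2 response genes, 1 was higher and 1 lower past both cutoffs, around a median of -0.16 on the log2 scale. Hmox1 rose 3.2 on the log2 scale, and Nqo1, a quinone reductase, fell by 1.43 from 16.4 to 5.96 TPM. Among 13 tested genes of glutathione and cysteine use, 2 were higher past both cutoffs, with a median of 0.31. They were Chac1 and Cth, which makes cysteine from cystathionine and rose from 9.81 to 65.6 TPM (log2 fold change 2.78, SE 0.0633, adjusted p = 3.48e-40, edgeR quasi-likelihood test).

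**Figure D4:**
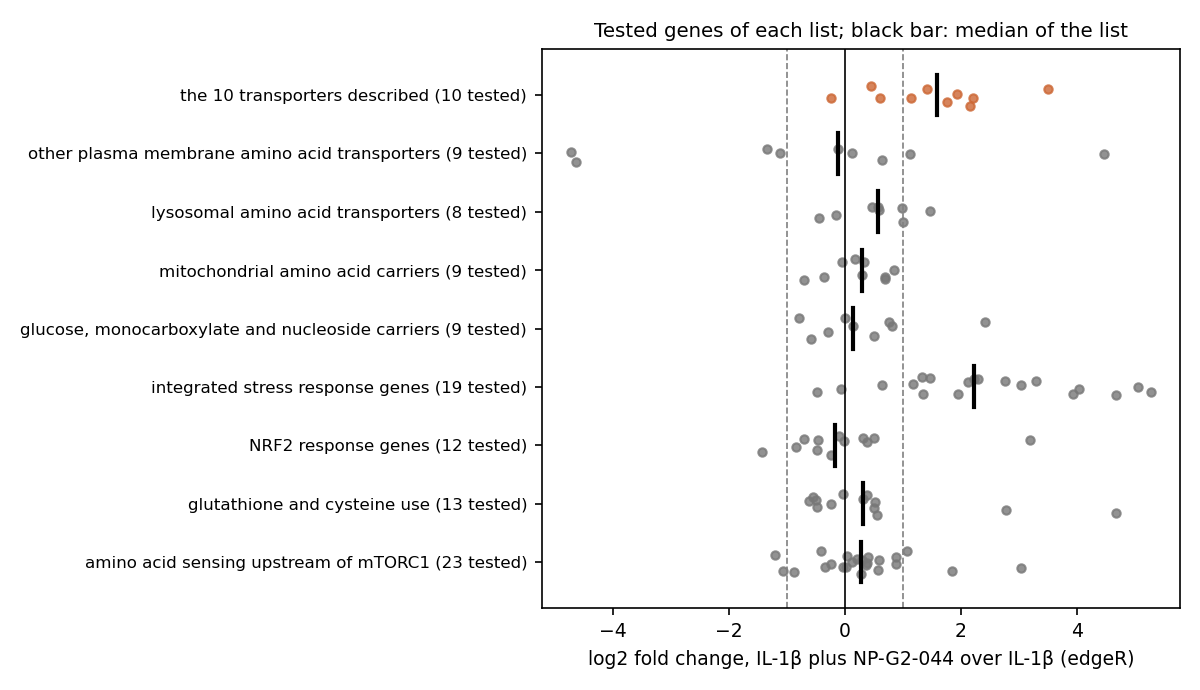
Log2 fold change, inhibitor group over the IL-1β group, of every tested gene of each list (points), with black bars at the list medians and dashed lines at a 2-fold change in either direction. The medians were 1.59 for the 10 transporters, -0.11 for other plasma membrane amino acid transporters and 2.24 for integrated stress response genes.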

How the data were processed

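RNA from 6 ATDC5 samples (3 with IL-1β, 3 with IL-1β plus NP-G2-044) was sequenced by the study with a TruSeq kit. The submitters' processing notes name cutadapt, HISAT2 2.0, StringTie and mm10. The authors deposited a gene table with estimated counts, TPM and FPKM for each library, and the deposited FPKM values entered only as an alternative to TPM in the sum and the heavy chain ratio. Between 10.17% and 11.06% of the estimated counts were not whole (tolerance 1e-09) and were rounded. Groups followed the sample labels. Genes were filtered with edgeR's filterByExpr (minimum count 10), scaled by TMM and fitted by edgeR 4.0.16 quasi-likelihood in R 4.3.3 with robust dispersion, without covariates, with p-values adjusted over all 11983 genes tested. The procedure was tested on simulated data and recovered 200 of 200 changed genes among 11918 tested, with 1 false call. Levels are the deposited TPM. Alternatives were DESeq2 1.42.0, limma 3.58.1 on log2(TPM + 1) or log2(TPM + 0.1), other scalings and filters, a test against a fold change of 2, a replicate block and leaving out each library.

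Named genes were the 10 transporters, from each list the up to 3 largest rises and falls past both cutoffs with a mean of at least 1 TPM, and the 5 genes of at least 10 TPM nearest in profile to the transporter with the largest change. The transporters and the lists were chosen with earlier results of these data known, so their counts are descriptions. Promoter windows and gene positions are from RefSeq on GRCm38.p6, the assembly behind mm10, and exon overlaps from GENCODE vM21 on the same assembly.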

Additional observations from a re-analysis of the deposited data

How the results depend on the processing

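Over the alternatives tried, the directions of all 10 transporters held, and 7 passed both cutoffs under each. The calls that did not hold were of small or scarce changes. Slc7a3 did not pass with DESeq2 (log2 fold change 0.61, adjusted p = 0.133), and leaving out single libraries gave 0.52 to 0.77. It had too few reads for a filter of at least 10 CPM. Against a fold change of 2, Slc7a3 (0.61), Slc38a2 (-0.24) and Slc1a5 (0.45) did not pass. Slc66a1 fell below the fold cutoff with limma on log2(TPM + 1) and on log2(TPM + 0.1). It also fell below with the filter of at least 10 CPM and without IL-1β replicate 1 or 2. In the test against a fold change of 2, it did not pass. Each of these settings left 1 lysosomal transporter in place of 2. Without NP-G2-044 replicate 1 or 3 the count was 3, as Ctns came past the cutoff. Ctns is the cystine exporter, at a log2 fold change of 0.99 in the full data. Leaving out single libraries thus gave 1 to 3. Against a fold change of 2, 3 genes of amino acid sensing upstream of mTORC1 passed in place of 5. CPM, reads scaled to a common library total, leaves out transcript length. With CPM in place of TPM, the inhibitor group was 1.46-fold higher in the ratio of Slc3a2 to Slc7a5 plus Slc7a11. In the sum of the transporters it was 2.48-fold higher. Libraries of the same replicate number showed no shared deviation from their group means (correlations of -0.0934, -0.0236 and 0.0259). This does not settle whether the samples were paired. With the replicate block, 1984 genes passed both cutoffs against 1987 without it, and no transporter lost its call. At 59 and 95 reads in all, Slc7a3 was limited by depth, and Slc1a2 likewise, whose groups overlapped in TPM. The 2 other plasma membrane transporters higher past both cutoffs became 1 with DESeq2 and with limma on log2(TPM + 1) or log2(TPM + 0.1). They also became 1 against a fold change of 2, and 0 with the filter of at least 10 CPM.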

Other observations

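The genes that sense amino acids upstream of mTORC1, the kinase that couples amino acid supply to growth, changed in both directions. Of 23, all tested, 3 were higher and 2 lower past both cutoffs, and the median change was 0.28 on the log2 scale. Sesn2, a leucine-binding inhibitor of the pathway, was at 6.01, 6.64 and 7.44 TPM with IL-1β and 52.9, 54.4 and 54.0 TPM with NP-G2-044 (log2 fold change 3.04). Rragd, a Rag GTPase, rose from 12.9 to 45.5 TPM, and Flcn, a regulator of the Rag GTPases, from 44.8 to 94.0 TPM. Sesn3, a relative of Sesn2, fell by 1.2 on the log2 scale to 4.69 TPM, and Castor2, of the arginine-sensing family, fell by 1.07 from 24.6 to 11.5 TPM.

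Carriers of glucose, monocarboxylates and nucleosides gave 1 gene past both cutoffs among 9 tested, and the median change was 0.15 on the log2 scale. This was Slc16a6, a monocarboxylate carrier, which rose from 2.46 ± 0.0458 to 13.5 ± 0.276 TPM (SD, n = 3, log2 fold change 2.42).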
